A study of Mus musculus with 12 samples.

Results

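The 7 genes described here encode activators, chain-building enzymes, an inhibitor and end effectors of the anaphase-promoting complex (APC/C). They are Cdc20, Fzr1, Ube2c, Ube2s, Fbxo5, Pttg1 and Espl1. They were taken by symbol, and each of the 7 was found among the 35709 gene identifiers of the deposited RNA-seq table. RNA came from hepatocytes that were isolated by Liberase perfusion, differential centrifugation and a Percoll gradient; the mice were C57BL/6J males, 8 to 10 weeks old. The 4 groups were Alb-R3 mice given CCl4, Alb-Cre mice given CCl4, Alb-R3 mice given oil and Alb-Cre mice given oil, with 3 samples each. Alb-R3 mice lack Fgfr3, a fibroblast growth factor receptor gene, in hepatocytes, and Alb-Cre mice served as controls. In Alb-Cre mice the Cre recombinase is driven by the albumin promoter, which is active in cells of the hepatocyte lineage, and the labels name no other driver for the deletion in Alb-R3 mice. CCl4, a toxicant that injures the hepatocytes that metabolize it, was injected once intraperitoneally in olive oil (0.4 mg per g of mouse), and the oil groups received the vehicle by the same route. Samples are labelled 48 h. The labels do not say that each sample came from a separate animal, so a p-value here covers the spread from sample to sample, which may be technical.

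The APC/C is a ubiquitin ligase that marks proteins for destruction so that a cell can separate its chromosomes and leave mitosis. Cdc20 activates it in mitosis, once the spindle checkpoint is satisfied, and Fzr1 (also called Cdh1) activates it from late mitosis through G1. Ube2c places the first ubiquitins on a substrate and Ube2s lengthens the chain, while Fbxo5 (Emi1) blocks the complex in S and G2 phase. Pttg1 (securin) holds the protease separase, encoded by Espl1, inactive until the APC/C destroys it, and separase then cuts the cohesin that ties sister chromatids together. Most hepatocytes of an uninjured adult liver are quiescent, and they re-enter the cell cycle after loss or injury of liver tissue.

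Promoter sequences of the 7 genes were read from RefSeq (GRCm38.p6), in which all 7 matched by symbol, over a window of 300 bases with 250 before the transcription start and 50 from it on. Both strands were searched for the CCAAT box (CCAAT) and for the cell cycle genes homology region (CHR, here TTTGAA or TTCGAA), motifs known from promoters of genes active in G2 and mitosis, and for 4 E2F words (TTTCGCGC, TTTGGCGC, TTCCCGCC and TTCGCGCC). The stretches of 160 bases before the start are shown for Cdc20 (chr4:118437344-118437503, minus strand), Ube2c (chr2:164769769-164769928, plus strand) and Espl1 (chr15:102296133-102296292, plus strand), the genes with the largest increases after CCl4, with CCAAT boxes and CHR words in capitals. ATTGG and TTCAAA are the same words on the opposite strand.
Cdc20: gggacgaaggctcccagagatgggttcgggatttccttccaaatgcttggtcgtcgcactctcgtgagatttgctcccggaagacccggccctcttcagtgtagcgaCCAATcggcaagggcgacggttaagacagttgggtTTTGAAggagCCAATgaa
Ube2c: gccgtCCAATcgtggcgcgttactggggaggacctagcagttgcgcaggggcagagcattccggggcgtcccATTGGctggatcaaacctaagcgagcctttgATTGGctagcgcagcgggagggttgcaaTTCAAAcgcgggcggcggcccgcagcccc
Espl1: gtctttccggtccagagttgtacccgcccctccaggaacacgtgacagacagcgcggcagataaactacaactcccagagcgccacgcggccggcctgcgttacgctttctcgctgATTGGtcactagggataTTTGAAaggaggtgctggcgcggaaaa

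In these 3 promoters a CHR word lay within 29 bases before the start, at -18 to -13 in Cdc20, -29 to -24 in Ube2c and -27 to -22 in Espl1, counted from -1 as the base just before the start. Cdc20 had 2 CCAAT boxes, Ube2c had 6, of which 2 overlap, and Espl1 had 1. Fbxo5 had 3 CCAAT boxes and a CHR word just inside the transcript, at 4 to 9. Ube2s had the CHR word TTCGAA far upstream, at -162 to -157, and no CCAAT box, Fzr1 had 1 CCAAT box and no CHR word, and Pttg1 had neither. No E2F word was found in any of the 7 windows. Among 32851 RefSeq promoters of the same length, 37.4% held a CCAAT box, 19.2% a CHR word, 7.52% both and 3.32% an E2F word, and 1.2% held a CCAAT box and a CHR word that both began within 100 bases before the start. A match describes letters in the window and not a bound site, and a missing match says nothing of a factor. The RefSeq start lay 270 bases inside the outermost GENCODE M21 start for Pttg1, 250 for Ube2s, 146 for Fzr1 and 135 for Fbxo5, so their windows lie partly or wholly within the GENCODE gene, and 9 to 31 bases from it for the 3 genes shown.

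**Figure D1:**
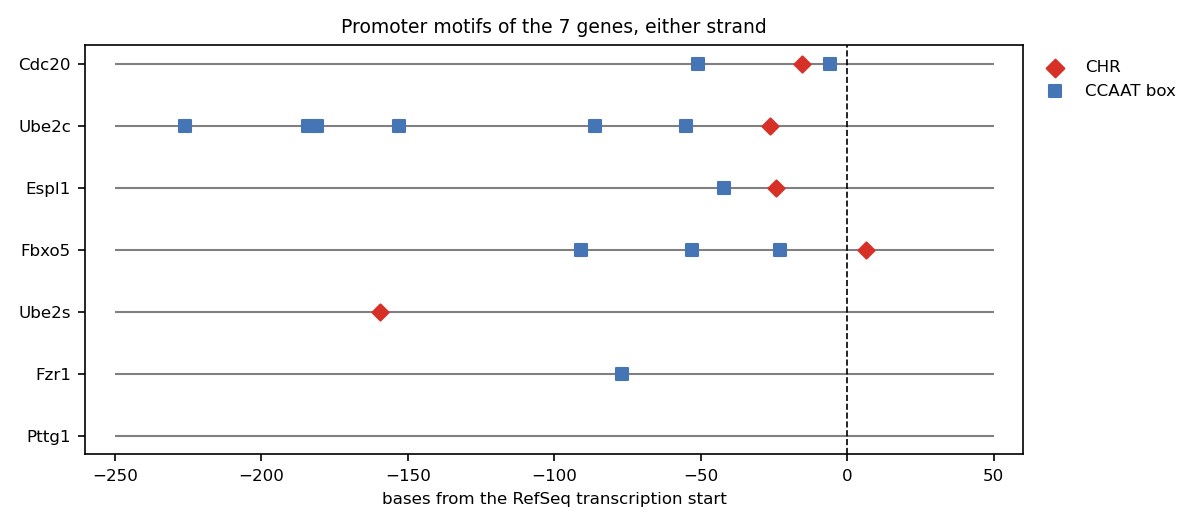
CHR words (diamonds) and CCAAT boxes (squares) in the promoter of each of the 7 genes, by distance in bases from the RefSeq transcription start. Cdc20, Ube2c and Espl1 have a CHR word within 29 bases before the start, Fbxo5 has one just after it, and Fzr1 and Pttg1 have none.

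Totals per sample ran from 2.72e+07 to 3.88e+07 normalized counts, and 1 read was worth 0.7325 to 1.193 normalized counts. The 9 hepatocyte markers measured took 6.48% of the normalized counts in Alb-R3 CCl4 replicate 1 and 7.92% to 13.1% in the other samples. The same library stood apart by its mitochondrially encoded genes, which took 32.3% of its normalized counts against 6.22% to 12.8% in the other samples. Fgfr3 had 372.1 to 477.7 normalized counts in Alb-R3 CCl4 samples and 705.7 to 950.9 in Alb-Cre CCl4 samples. After oil it had 523.1 to 1109 in Alb-R3 samples and 734.9 to 988.1 in Alb-Cre samples, and the library labelled Alb-R3 oil replicate 3 held the highest Fgfr3 value of all 12, against its label.

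The first comparison, CCl4 against oil within each genotype, shows which genes of the APC/C machinery changed in RNA level 48 h after the injury. In each genotype 5 of the 7 genes rose: Cdc20, Ube2c and Espl1, which were close to 0 after oil, by 25.8 to 239 times, and Fbxo5 and Ube2s by 2.41 to 4.31 times. Fzr1 did not pass the test in either genotype, and Pttg1 fell by 0.68 on the log2 scale in Alb-R3 hepatocytes. Among all 20244 genes tested with limma (adjusted p under 0.05, Benjamini-Hochberg), 10.9% were higher and 6.92% lower after CCl4 in Alb-R3, and 3.46% were higher and 0.988% lower in Alb-Cre. That split moved with the scaling: in Alb-R3 it was 2198 higher and 1400 lower as fitted, 3118 and 544 with FPKM and 1723 and 1640 with quantile normalization, and in Alb-Cre it was 700 and 200 as fitted and 1096 and 88 with FPKM. The median log2 fold change of the 7 genes was 2.11 in Alb-R3 and 1.54 in Alb-Cre, against 0.00 and 0.02 over all genes tested.

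Cdc20 (ENSMUSG00000006398, chr4:118432901-118437352, minus strand), the mitotic activator, had 529.2, 4129 and 3843 normalized counts in Alb-R3 CCl4 samples, 2614, 736.6 and 2658 in Alb-Cre CCl4 samples, 5.471, 11.33 and 13.01 in Alb-R3 oil samples and 15.75, 8.75 and 2.387 in Alb-Cre oil samples. Every CCl4 sample lay above every oil sample, and within each CCl4 group 1 sample was far below the other 2. The log2 fold change was 7.61 ± 0.78 in Alb-R3 (SE, limma adjusted p = 3.12e-05) and 7.71 ± 0.78 in Alb-Cre (adjusted p = 4.96e-05), the highest of all 20244 tested genes in Alb-Cre and rank 9 in Alb-R3. Without the low Alb-R3 CCl4 replicate 1 the Alb-R3 value was 8.58, and in Alb-Cre it was 8.33 without CCl4 replicate 2 and 7.08 without oil replicate 3.

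The activator of late mitosis and G1, Fzr1 (ENSMUSG00000020235, chr10:81366222-81378516, minus strand), had 496.2, 595.5 and 521.7 normalized counts in Alb-R3 CCl4 samples, 559.0, 394.6 and 612.6 in Alb-Cre CCl4 samples, 425.7, 465.8 and 508.5 in Alb-R3 oil samples and 467.2, 450.1 and 540.6 in Alb-Cre oil samples. In normalized counts the groups overlapped in both genotypes. Its log2 fold change was 0.20 ± 0.18 in Alb-R3 (95% interval -0.18 to 0.59, limma adjusted p = 0.484) and 0.08 ± 0.18 in Alb-Cre (-0.31 to 0.47, adjusted p = 0.876). On normalized counts the intervals leave room for a change of up to 1.51 times in Alb-R3 and 1.39 times in Alb-Cre. In FPKM the log2 fold changes were 0.47 in Alb-R3 (limma adjusted p = 0.159) and 0.31 in Alb-Cre (0.49). The median of all genes was then 0.17 and 0.15. FPKM of Fzr1 in Alb-R3 did not overlap, with 7.06 to 7.67 after oil and 8.17 to 12.02 after CCl4, whereas in Alb-Cre it did.

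Ube2c (ENSMUSG00000001403, chr2:164769898-164778822, plus strand), the enzyme that starts ubiquitin chains, had 431.6, 1431 and 1310 normalized counts in Alb-R3 CCl4 samples, 863.1, 375.2 and 915.6 in Alb-Cre CCl4 samples, 3.283, 0 and 12.96 in Alb-R3 oil samples and 8.407, 2.917 and 5.972 in Alb-Cre oil samples. The oil values come from 0 to 10.96 estimated reads per sample, and a count of 0 allows up to 3 reads, 3.399 normalized counts in that library, by counting error only. The log2 fold change was 7.90 ± 0.78 in Alb-R3 (limma adjusted p = 2.68e-05) and 6.72 ± 0.78 in Alb-Cre (adjusted p = 0.000138). The gene was called in every setting tried, but its size in Alb-R3 was 9.15 with a pseudocount of 0.1 and 6.69 with one of 5, 6.91 without Alb-R3 oil replicate 2 and 8.82 with the sample labelled Alb-R3 oil replicate 3 left out.

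Its partner in chain extension, Ube2s (ENSMUSG00000060860, chr7:4794546-4812590, minus strand), was abundant in both conditions, with 1664, 2546 and 2209 normalized counts in Alb-R3 CCl4 samples, 1562, 1202 and 1983 in Alb-Cre CCl4 samples, 503.4, 552.0 and 816.0 in Alb-R3 oil samples and 698.2, 567.0 and 669.5 in Alb-Cre oil samples. CCl4 and oil samples did not overlap. Log2 fold changes were 1.79 ± 0.23 in Alb-R3 (limma adjusted p = 2e-04) and 1.27 ± 0.23 in Alb-Cre (adjusted p = 0.00507). The Ube2s gene shares 521 bases with Rpl28 on the opposite strand, a ribosomal protein gene with up to 15530 normalized counts. Shared bases are those of whole gene spans, introns included, and shared exons were not looked for. The sources used here do not say whether strand was used in the counting, so how reads there were assigned is not known. Of the other genes, Ube2c shares 1662 bases with Tnnc2, which reached at most 2.1 normalized counts. Cdc20 shares 53 bases with Elovl1, which reached 2025 normalized counts, against at most 15.75 for Cdc20 in oil samples. Espl1 shares 142 with the processed pseudogene Gm49480, which had no value, and Fzr1 shares 4 with Mfsd12, which reached 543.7. Each of these lies on the opposite strand, and their part in the values was not tested.

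Fbxo5 (ENSMUSG00000019773, chr10:5799160-5805600, minus strand), the inhibitor of the complex, had 78.41, 91.56 and 109.8 normalized counts in Alb-R3 CCl4 samples, 66.11, 76.63 and 82.28 in Alb-Cre CCl4 samples, 29.55, 19.27 and 15.37 in Alb-R3 oil samples and 33.60, 20.42 and 22.67 in Alb-Cre oil samples. Each CCl4 sample again lay above each oil sample, and the samples of a CCl4 group were closer to each other than for Cdc20. The log2 fold change was 2.11 ± 0.33 in Alb-R3 (limma adjusted p = 0.000853) and 1.54 ± 0.33 in Alb-Cre (adjusted p = 0.0155). The Alb-Cre call was lost with quantile normalization (adjusted p = 0.0884) and when Alb-Cre oil replicate 2 (0.0605) or replicate 2 (0.0646) or 3 (0.0727) of the Alb-Cre CCl4 group was left out.

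Espl1 (ENSMUSG00000058290, chr15:102296266-102324357, plus strand), which encodes separase, had 139.4, 221.6 and 364.7 normalized counts in Alb-R3 CCl4 samples, 235.8, 129.1 and 198.3 in Alb-Cre CCl4 samples, 6.564, 2.28 and 4.33 in Alb-R3 oil samples and 5.143, 5.87 and 7.455 in Alb-Cre oil samples. The lowest CCl4 sample was many times above the highest oil sample. After CCl4 its log2 fold change was 5.47 ± 0.43 in Alb-R3 (limma adjusted p = 6.26e-06) and 4.69 ± 0.43 in Alb-Cre (adjusted p = 2.89e-05), and with a pseudocount of 5 the values were 4.64 and 4.07.

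The gene for the separase inhibitor, Pttg1 (ENSMUSG00000020415, chr11:43420250-43426251, minus strand), had 548.4, 737.1 and 576.5 normalized counts in Alb-R3 CCl4 samples, 659.5, 605.3 and 672.0 in Alb-Cre CCl4 samples, 971.4, 899.4 and 1094 in Alb-R3 oil samples and 874.8, 925.0 and 1137 in Alb-Cre oil samples. In normalized counts all 6 CCl4 samples lay below all 6 oil samples, the opposite order from Espl1. In FPKM, Alb-R3 CCl4 replicate 2 (32.8) lay above Alb-R3 oil replicate 2 (32.53) and Alb-Cre oil replicate 1 (31.86). The log2 fold change was -0.68 ± 0.16 in Alb-R3 (limma adjusted p = 0.0115) and -0.59 ± 0.16 in Alb-Cre (95% interval -0.94 to -0.24, adjusted p = 0.0571). In FPKM, where the median of all genes shifted by 0.17 in Alb-R3 and 0.15 in Alb-Cre, the Pttg1 values were -0.41 and -0.36, or -0.58 and -0.51 relative to that median, and neither passed (adjusted p = 0.151 and 0.319). The Alb-Cre value passed without Alb-R3 CCl4 replicate 1 (0.0311) or replicate 2 (0.0499), which enter only through the shared spread, and with library weights (0.0228).

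**Figure D2:**
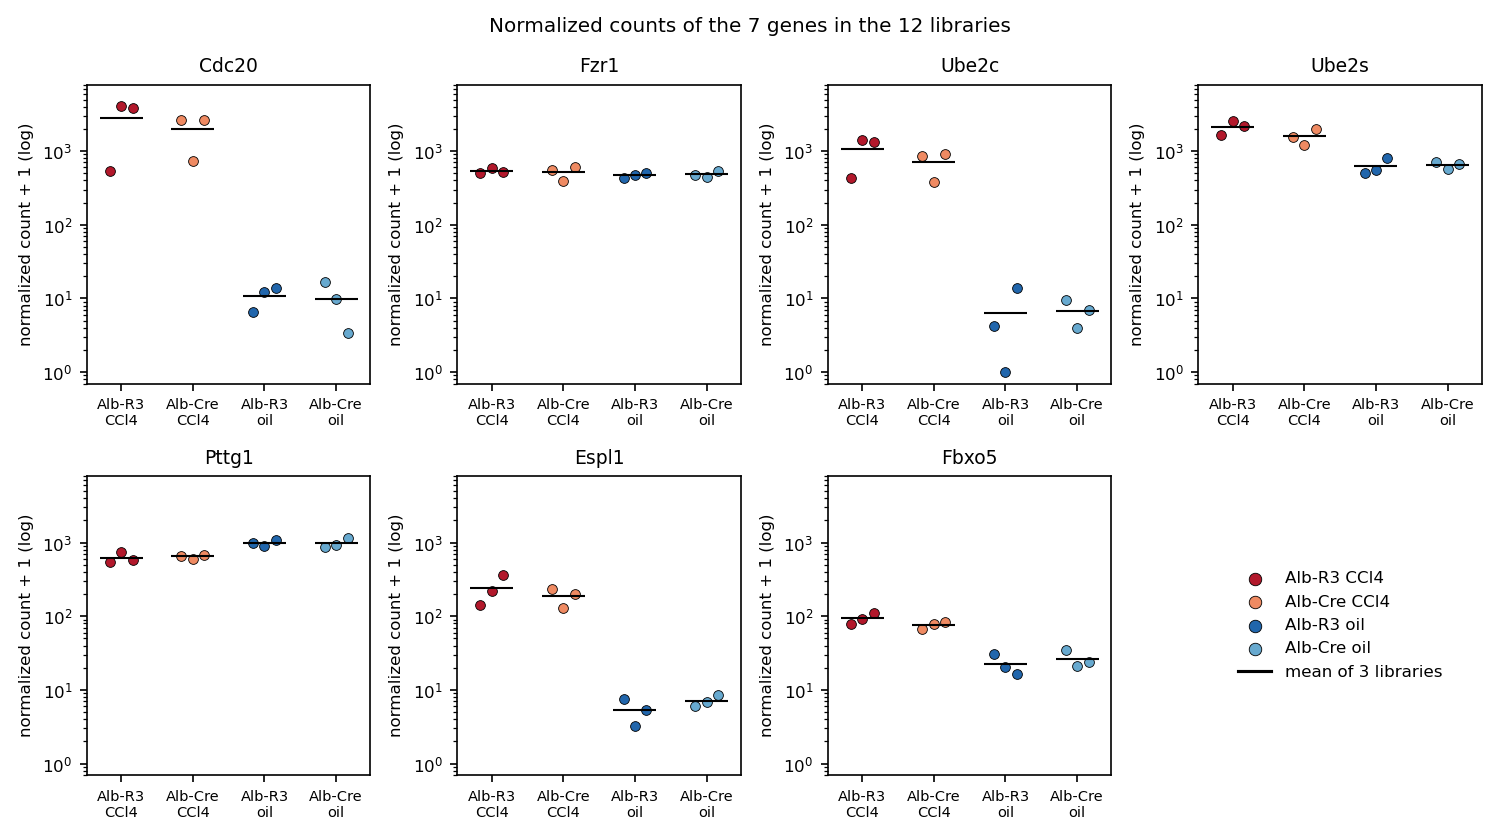
Normalized counts plus 1 (log axis) of each of the 7 genes in the 12 libraries, by group, with a line at the mean of the 3 libraries. Before 1 was added, Cdc20, Ube2c and Espl1 reached at most 15.75 in oil libraries and at least 129.1 in CCl4 libraries, Fzr1 overlapped, and Pttg1 was lower in all CCl4 libraries.

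Values varied within each CCl4 group. Alb-R3 CCl4 replicate 1 had the lowest value of its group for all 7 genes, and Alb-Cre CCl4 replicate 2 for 6 of 7, Fbxo5 being the exception. The ratio of the highest to the lowest sample for Cdc20 was 7.80 in the Alb-R3 CCl4 group and 3.61 in the Alb-Cre CCl4 group, against 1.20 and 1.55 for Fzr1. The low libraries were also low for the 25 APC/C substrates described below, with the lowest value of the group for 22 of 25 in Alb-R3 CCl4 replicate 1 and for 18 of 25 in Alb-Cre CCl4 replicate 2. Substrates together took 0.0190% of the normalized counts in the first of these libraries, with 0.0855% and 0.109% in the rest of its group, and 0.0333% in the second, with 0.0636% and 0.0640% in the rest of its group. Oil samples had 0.00391% to 0.00522%. Of the other lists below, Alb-R3 CCl4 replicate 1 was lowest for 13 of 16 cohesin, 11 of 14 phosphatase and 11 of 14 ubiquitin enzyme genes. It was also lowest for 8 of 10 checkpoint genes and 7 of 14 core subunits. Alb-Cre CCl4 replicate 2 was lowest for 10 of 16 cohesin, 8 of 14 phosphatase and 4 of 14 ubiquitin enzyme genes. It was also lowest for 7 of 10 checkpoint genes and 6 of 14 core subunits. The share over all genes was not counted. Alb-R3 CCl4 replicate 1 is also the library with 32.3% of its normalized counts in mitochondrially encoded genes, the lowest hepatocyte marker share (6.48%) and the highest Kupffer cell and macrophage marker share (0.0378%), and the part of these in its low values was not tested. In bulk RNA, fewer cells of a type and less RNA per cell cannot be told apart.

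Markers of some other liver cells rose with CCl4, beside 10.9% of all genes higher in Alb-R3 and 3.46% in Alb-Cre. All 10 Kupffer cell and macrophage markers were higher in Alb-R3 CCl4 than in Alb-R3 oil samples, and their summed share was 0.0378%, 0.00773% and 0.01125% after CCl4 against 0.00236% to 0.003% after oil. In Alb-Cre samples 0 of these 10 passed, with shares of 0.00488% to 0.00645% after CCl4 and 0.00363% to 0.00722% after oil. Stellate and fibroblast markers rose in 7 of 8 cases in Alb-R3 (0.00323% to 0.0113% after CCl4, 0.00139% to 0.00187% after oil) and in 4 of 8 in Alb-Cre (0.00557% to 0.00855% after CCl4, 0.00342% to 0.00372% after oil). Acta2 was at 0 in all 3 Alb-Cre oil samples and in Alb-R3 oil replicate 2. Endothelial markers rose in 6 of 8 cases in Alb-R3 (0.0105% to 0.0145% after CCl4, 0.00396% to 0.00422% after oil) and in 0 of 8 in Alb-Cre (0.00874% to 0.0135% after CCl4, 0.00655% to 0.0092% after oil). Of the other lists in Alb-R3, 1 of 5 cholangiocyte and 1 of 8 T, NK and B cell markers were higher. No neutrophil marker passed, and 1 of 4 erythroid and 2 of 9 hepatocyte markers were lower. In Alb-Cre 0 passed in these lists. Between genotypes, after CCl4 and after oil, and in the interaction, 0 markers of any list passed. The part of other cells in the values of the 7 genes was not tested.

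The comparison of Alb-R3 with Alb-Cre asks whether RNA of these genes differed between the genotypes as labelled, and none of the 7 genes passed in it. Fgfr3 RNA was still counted in every Alb-R3 sample (372.1 to 1109 normalized counts). A value over the whole gene does not show how complete the deletion was. After CCl4 0 of 7 passed, against 0.173% of all genes tested, and after oil 0 of 7, against 0.207%. At an unadjusted limma p under 0.05 the count was also 0 of 7 in each, beside 1573 of all 20244 genes after CCl4 and 1314 after oil. The difference between genotypes in the response to CCl4 (the interaction) gave 0 of 7 adjusted and 0 of 7 unadjusted, and 0 of all 20244 genes (0%) adjusted with 1516 unadjusted. Other limma settings called 6 (without the trend), 17 (no filter on low values) and 46 (library weights) genes in the interaction.

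The intervals show what these samples could not resolve. After CCl4 the smallest p belonged to Ube2s, with a log2 fold change of 0.44 ± 0.23 (95% interval -0.05 to 0.94, limma adjusted p = 0.699), and Cdc20 had 0.24 (-1.44 to 1.92) and Ube2c 0.48 (-1.20 to 2.16). Fzr1 had 0.06 (-0.33 to 0.45) and Pttg1 -0.07 (-0.41 to 0.28), the narrowest intervals of the 7. After oil, Espl1 had -0.48 (-1.41 to 0.46), Ube2c -0.70 (-2.38 to 0.98) and Cdc20 0.34 (-1.34 to 2.02). For the interaction, Ube2s had 0.52 (-0.18 to 1.22), Ube2c 1.18 (-1.19 to 3.56) and Cdc20 -0.10 (-2.48 to 2.28). The oil values include the library labelled Alb-R3 oil replicate 3 with its high Fgfr3, and no direction is drawn from them.

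**Figure D3:**
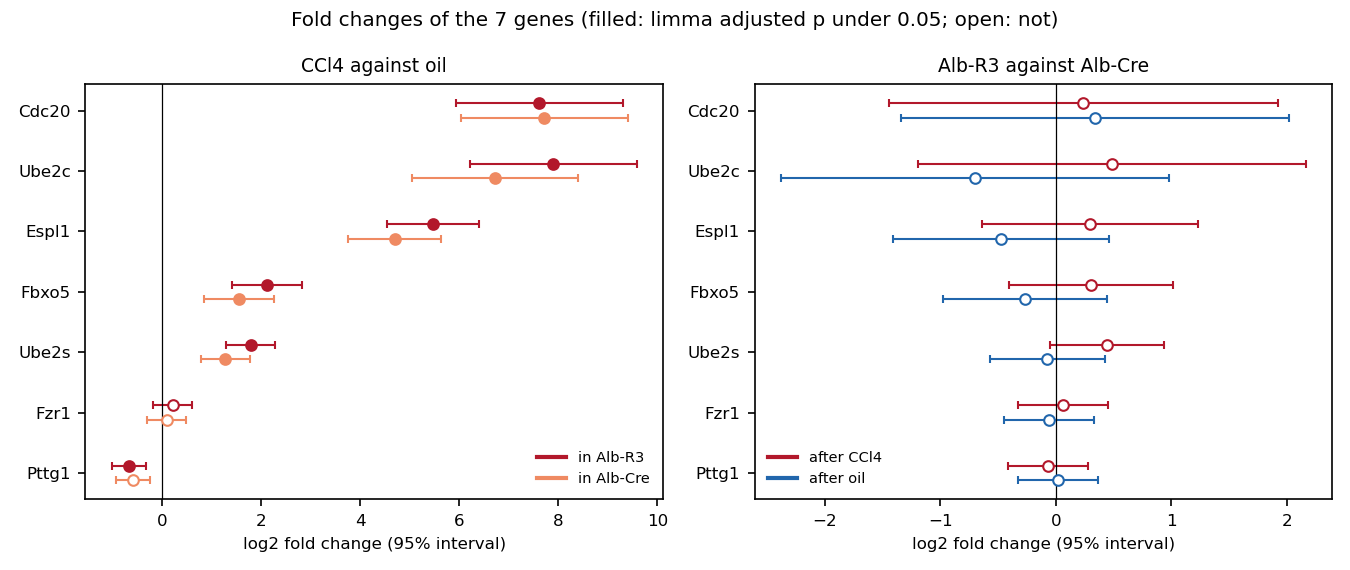
Log2 fold changes of the 7 genes with 95% intervals, for CCl4 against oil (left, Alb-R3 and Alb-Cre) and for Alb-R3 against Alb-Cre (right, after CCl4 and after oil). Filled points passed the limma threshold: 6 in Alb-R3 and 5 in Alb-Cre on the left, and 0 on the right, where every interval crosses 0.

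Levels of different genes can be compared only per length, so FPKM was used for the order. Pttg1 led after oil, at 34.8 ± 2.02 FPKM in Alb-R3 and 35.9 ± 4.94 in Alb-Cre (SD, n = 3), followed by Ube2s (11.6 ± 2.46 and 12.5 ± 1.19), Fzr1 (7.46 ± 0.34 and 8.08 ± 0.74) and Fbxo5 (0.51 ± 0.19 and 0.62 ± 0.17). Ranges of these 4 did not overlap, whereas those of Cdc20 and Ube2c overlapped, as did those of Ube2c and Espl1, all 3 being at or below 0.431 FPKM in every oil sample. After CCl4 the order was Cdc20 (96.6 ± 71.1 FPKM in Alb-R3 and 66.2 ± 38.1 in Alb-Cre), Ube2s (49.2 ± 15.0 and 36.4 ± 10.7), Pttg1 (26.7 ± 6.47 and 27.9 ± 3.06), Ube2c (23.1 ± 13.4 and 15.4 ± 6.96), Fzr1 (10.5 ± 2.03 and 10.3 ± 2.73), Espl1 (4.02 ± 2.31 and 3.05 ± 1.003) and Fbxo5 (2.68 ± 0.78 and 2.14 ± 0.27). Neighbours in that order overlapped except Fzr1 and Espl1 in both genotypes and Pttg1 and Ube2c in Alb-Cre.

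Partner ratios compare RNA levels of genes that act together, and protein levels were not measured here. Multiples given as times are plain FPKM ratios, and log2 differences and tests are on ratios of FPKM + 0.1, which are less extreme where a gene is near 0. Cdc20 was 1.77 to 12.2 times Fzr1 in Alb-R3 CCl4 samples and 3.09 to 7.76 times in Alb-Cre CCl4 samples, against 0.0213 to 0.0424 times in Alb-R3 oil samples and 0.00732 to 0.0559 times in Alb-Cre oil samples. RNA of the mitotic activator thus exceeded that of the G1 activator in every CCl4 sample and was below it in every oil sample. The log2(FPKM + 0.1) ratio of Cdc20 to Fzr1 was 7.12 higher after CCl4. Ube2c relative to Ube2s was 4.73 higher after CCl4, and stayed below Ube2s in all 12 samples. Pttg1 was 4.23 to 10.5 times Espl1 in Alb-R3 CCl4 samples and 7.48 to 12.5 times in Alb-Cre CCl4 samples, against 395.7 to 1055 times in Alb-R3 oil samples and 408 to 455 times in Alb-Cre oil samples. On the log2(FPKM + 0.1) scale that ratio averaged 2.84 ± 0.68 in Alb-R3 CCl4 samples and 3.20 ± 0.36 in Alb-Cre CCl4 samples, against 7.80 ± 0.22 in Alb-R3 oil samples and 7.60 ± 0.07 in Alb-Cre oil samples (SD), a difference of -4.69 after CCl4. Fbxo5 relative to Fzr1 was 1.54 higher after CCl4. Each of the 4 differences gave p = 0.005 in an exact two-sided permutation test with treatment labels permuted within genotype (400 arrangements, n = 3 per group), the smallest p this design allows, and 0.005 after Benjamini-Hochberg adjustment over the 4. Ratios with values near 0 depend on the pseudocount: Ube2c relative to Ube2s was 6.00 higher with 0.01 and 2.32 with 1, Pttg1 to Espl1 was -5.78 and -2.38, and with 1 Cdc20 to Fzr1 was 5.27 and Fbxo5 to Fzr1 0.76.

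**Figure D4:**
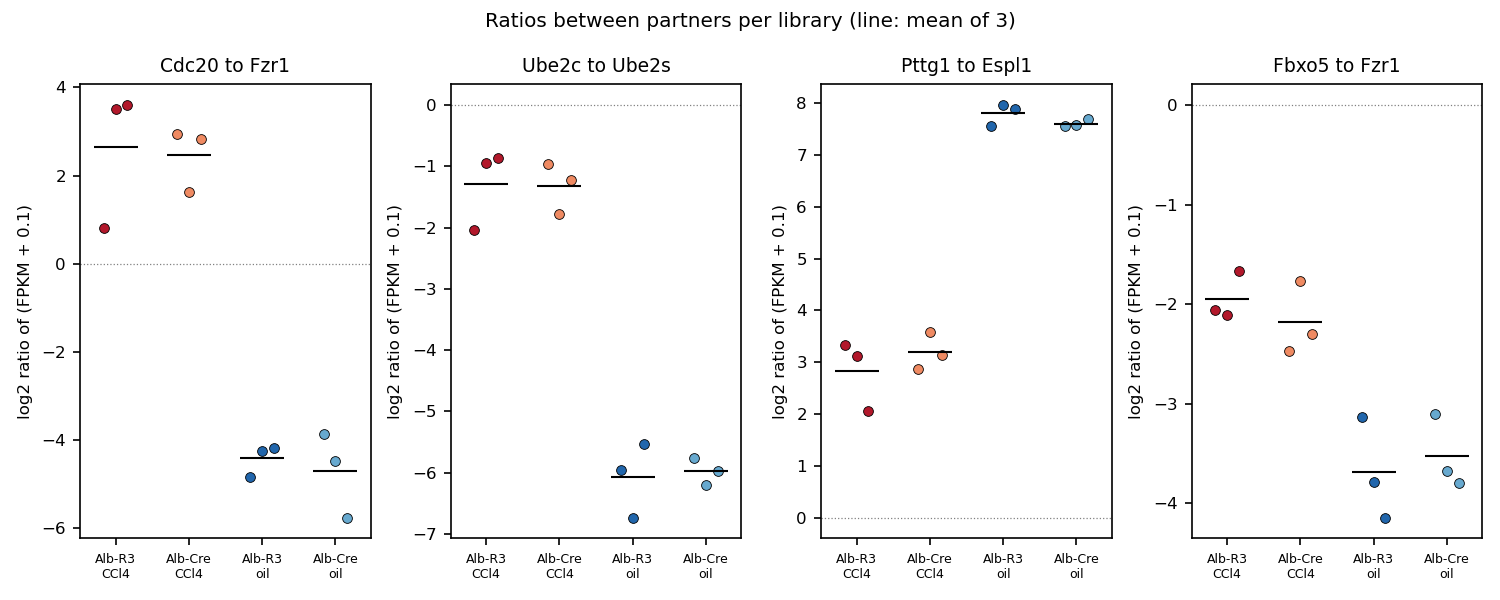
Log2 ratios of FPKM plus 0.1 between partners in each library, by group, with a line at the mean of 3. CCl4 libraries of both genotypes lie apart from oil libraries in each panel, above them for Cdc20 to Fzr1, Ube2c to Ube2s and Fbxo5 to Fzr1, and below them for Pttg1 to Espl1.

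Genes that work around the complex were counted by lists. The APC/C core subunits, the fixed scaffold and catalytic part of the ligase, had a median log2 fold change of 0.30 in Alb-R3 and 0.25 in Alb-Cre. Of 14, 2 rose in Alb-R3, Anapc4 (0.66 ± 0.18, limma adjusted p = 0.0229) and Anapc5 (0.52 ± 0.13, 0.0163), both scaffold subunits, and 1 rose in Alb-Cre, Anapc5 (0.50 ± 0.13, 0.0486), beside 10.9% and 3.46% of all genes higher in each. In Alb-R3 the count was 5 with FPKM, 6 with library weights, 1 without the trend and 0 in a fit to the 6 samples alone, and in Alb-Cre it was 2, 3, 0 and 0 in these, and 0 with the replicate block. Single samples also moved it: the Alb-Cre count was 0 without any single sample other than Alb-R3 CCl4 replicate 1, and the Alb-R3 count was 0 without Alb-R3 oil replicate 1 or Alb-R3 CCl4 replicate 3, 1 without Alb-R3 oil replicate 2 and 4 without Alb-Cre oil replicate 3.

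Genes of spindle checkpoint inhibition of the complex and of its removal, with the meiotic inhibitor Fbxo43 among them, rose in 6 of 10 tested in each genotype. Over all genes 10.9% were higher in Alb-R3 and 3.46% in Alb-Cre, and list medians were 1.67 and 1.28. Largest in Alb-R3 were the kinase Bub1 (6.995 ± 0.72) and Bub1b (5.92 ± 0.55), which encodes a Cdc20-binding part of the checkpoint complex. In Alb-Cre the largest were the kinase Ttk (6.97 ± 0.57) and Bub1 (5.92 ± 0.72). The Bub1 and Ttk sizes rest on oil values near 0. After oil, Bub1 averaged 1.094 normalized counts in Alb-R3 and 1.322 in Alb-Cre, and Ttk averaged 4.022 and 1.153. Smallest of those that rose were Bub3, a partner of both Bub kinases (0.71 ± 0.17 in Alb-R3 and 0.68 ± 0.17 in Alb-Cre), and Trip13, an ATPase that takes the checkpoint complex apart (2.64 ± 0.39 and 1.88 ± 0.39).

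Of the 25 substrates that the complex marks for destruction, 24 rose in each genotype, beside 10.9% of all genes in Alb-R3 and 3.46% in Alb-Cre. Medians were 6.06 in Alb-R3 and 5.45 in Alb-Cre. Ccnb1, encoding the mitotic cyclin B1, and Foxm1, a transcription factor of G2 and M phase genes, were largest in Alb-R3 (both 8.28). In Alb-Cre they had 6.762 and 5.489. Hmmr, a spindle protein gene (7.63 ± 0.93), and Top2a, a DNA topoisomerase gene (7.55 ± 0.53), were largest in Alb-Cre. These sizes rest on oil values near 0. Mean normalized counts in Alb-R3 oil samples were 3.502 for Ccnb1 and 1.124 for Foxm1. In Alb-Cre oil samples they were 2.677 for Hmmr and 6.042 for Top2a. For Foxm1, Alb-R3 against Alb-Cre was -2.546 after oil and 0.241 after CCl4. Neither passed, nor did its interaction (2.787 ± 0.745, limma adjusted p = 0.364). Gmnn, encoding the replication licensing inhibitor geminin, rose least (1.27 ± 0.22 in Alb-R3 and 0.86 ± 0.22 in Alb-Cre), and next came Cdc25a, a phosphatase that activates cyclin-dependent kinases (1.35 ± 0.21 and 1.24 ± 0.21). Tk1, thymidine kinase 1, did not pass, at 0.27 ± 0.35 in Alb-R3 and 0.96 ± 0.35 in Alb-Cre.

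Of 16 genes of cohesin and its regulators, 4 rose in each genotype, beside 10.9% of all genes in Alb-R3 and 3.46% in Alb-Cre. The 4 were Cdca5 (sororin, 6.35 ± 0.57 in Alb-R3 and 5.36 ± 0.57 in Alb-Cre), Sgo1 and Sgo2a (shugoshins that guard centromeric cohesin) and Esco2 (a cohesin acetyltransferase, 5.02 ± 0.72 and 5.20 ± 0.72). The other 12 did not pass, among them the acetyltransferase Esco1 (0.37 ± 0.20 in Alb-R3 and -0.10 ± 0.20 in Alb-Cre). Rad21, the subunit that separase cuts, had 1.01 ± 0.39 in Alb-R3 (limma adjusted p = 0.0943) and 0.84 ± 0.39 in Alb-Cre (0.296), and list medians were 0.24 and 0.41. Cdca5 and Sgo1 are also counted among the substrates.

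Among 14 phosphatases of mitotic exit and their regulators, 3 rose in Alb-R3, where 10.9% of all genes were higher. These were Cdca2 (7.19 ± 0.45), which brings protein phosphatase 1 to chromatin, the kinase Mastl (4.36 ± 0.59), which restrains protein phosphatase 2A, and the phosphatase Cdc14a (2.46 ± 0.53). In Alb-Cre, where 3.46% of all genes were higher, 2 rose, Mastl (5.57 ± 0.59) and Cdca2 (5.56 ± 0.45). List medians were 0.10 and -0.05. Cdc14a was low, at 6.14 normalized counts on average in Alb-R3 oil and 17.5 in Alb-Cre oil samples, and 38.0 and 18.2 after CCl4. Its interaction did not pass (2.41 ± 0.75, limma adjusted p = 0.454). Of 14 tested ubiquitin enzymes that act beside or against the complex, Usp37, a deubiquitinase that opposes it (0.72 ± 0.22), and Ccnf, which encodes an F-box protein (0.90 ± 0.29), rose in Alb-R3 and Usp37 (1.03 ± 0.22) rose in Alb-Cre, with medians of 0.10 and -0.06, again beside 10.9% and 3.46% of all genes higher. The Alb-R3 count of 2 was 0 with the replicate block or no filter and 1 with quantile normalization, no trend, a pseudocount of 0.1 or 5 or a fit to the 6 samples alone, and the Alb-Cre count was 0 in a fit to the 6 samples alone and 2 with library weights. The Alb-R3 count of 2 was 0 or 1 without any single sample other than Alb-Cre oil replicates 2 and 3 and Alb-R3 CCl4 replicate 1, and the Alb-Cre count was 0 without Alb-Cre CCl4 replicate 2 and 2 without Alb-Cre oil replicate 2. In the comparisons of genotypes and in the interaction, 0 genes of each of the 6 lists passed as fitted. With library weights, some passed in Alb-R3 against Alb-Cre after oil, where 663 of all genes did. These were 3 substrates (1 higher, 2 lower), 1 cohesin gene (lower) and 3 phosphatase genes (1 higher, 2 lower). Without Alb-R3 CCl4 replicate 1, 1 substrate was lower in that comparison.

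**Figure D5:**
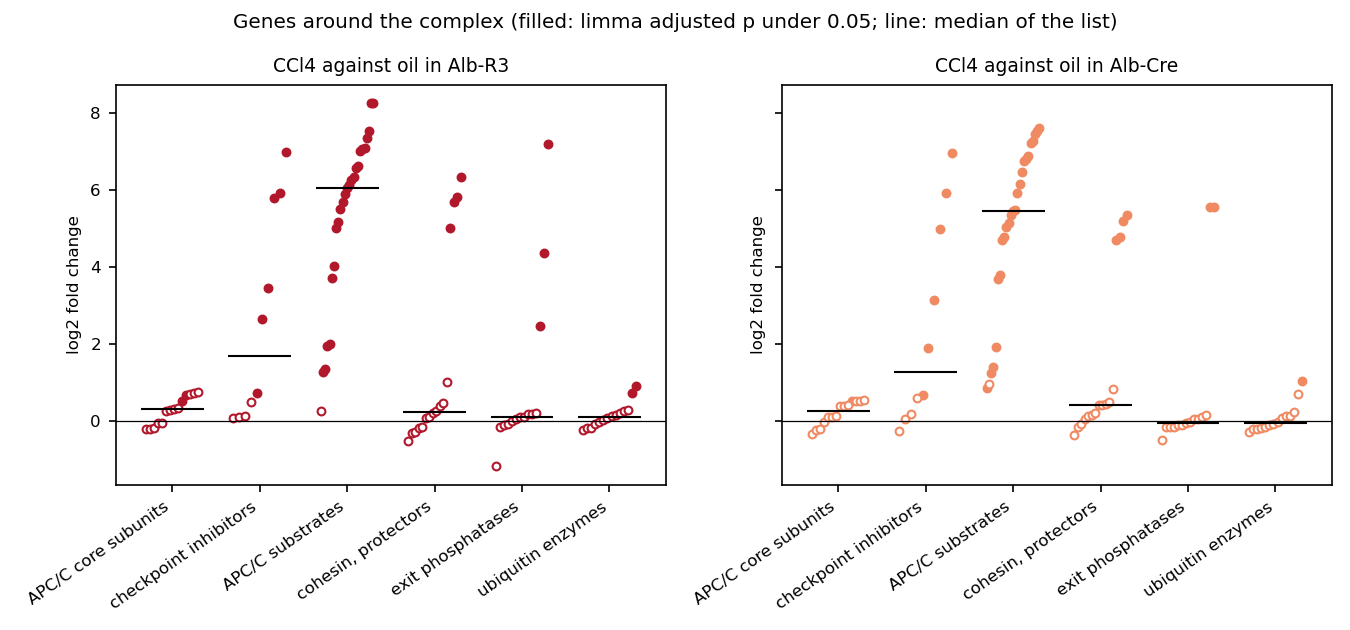
Log2 fold changes after CCl4 of the genes in 6 lists around the complex, in Alb-R3 (left) and Alb-Cre (right), with a line at each list's median and filled points for limma adjusted p under 0.05. Nearly all of the 25 substrates lie far above 0, whereas core subunits and ubiquitin enzymes lie near 0.

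Across the 12 samples, genes whose log2 normalized counts followed each of the 7 most closely were found by Pearson r. The search left out the 7 genes themselves and predicted or clone-named gene models. These r are given as a description, since all points share the split between CCl4 and oil. Cdc20 was most like Ncapd2 (0.997), Hmmr (0.996) and Kif11 (0.995), Ube2c like Cdk1 (0.992), Birc5 (0.987) and Cdca2 (0.987), and Espl1 like Cdca2 (0.992), Oip5 (0.992) and Cdk1 (0.989). Ube2s was most like Trim59 (0.982), Ncaph2 (0.980) and Ccnb1 (0.979), and Fbxo5 like Nid1 (0.979), Cep55 (0.977) and Nrm (0.976). Pttg1 was most like Gstk1 (0.978), Slc35d2 (0.969) and Sod2 (0.9645), and no gene searched followed Fzr1 beyond 0.887, reached by Cyth2. Between pairs of the 7 genes, r was 0.962 for Cdc20 and Ube2c and -0.869 for Cdc20 and Pttg1, but over deviations from group means these were 0.467 and 0.155.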

How the data were processed

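RNA-seq values of isolated hepatocytes were deposited as 1 table that, per the file headers, gives each gene in each sample as a normalized count and as FPKM. The authors' normalized count is a signal (an estimated count scaled by 1 factor per sample) and not whole reads: in each sample 69.8% to 74.6% of low values fell on whole multiples of the value of 1 read (tolerance 0.02), so no count test was used. Named in the submitters' processing notes, without their steps, are kallisto 0.44.0, edgeR and GRCm38.p6. Depth was 2.8e+07 to 3.96e+07 estimated reads per sample, and intervals and limits on reads cover counting error only.

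Log2(normalized count + 1) was fitted with limma 3.58.1 (R 4.3.3) with a trend, with 1 coefficient for each of 4 groups and 8 residual degrees of freedom, over the 20244 genes that reached 1 in 3 or more samples. Such fold changes understate the change of low genes. P-values were adjusted by Benjamini-Hochberg over all tested genes in each of 5 comparisons, with a threshold of 0.05. Ratios between genes used log2(FPKM + 0.1) and exact permutation tests. Columns of no sample in use numbered 0. Gene positions are from GENCODE M21 on GRCm38, 1-based, and promoter sequences from RefSeq.

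All 7 genes are given in full. Of each pathway list, up to 2 genes of largest and 2 of smallest log2 fold change past the threshold are named. Some others (Tk1, Rad21, Esco1) were named after their values were seen. Members and lists were chosen with earlier results of these data known. Alternatives were quantile normalization, no trend, other filters and pseudocounts, a replicate block, FPKM, library weights, a fit to the 6 samples of a comparison, and leaving samples out in turn. Counts of the pathway lists under these alternatives were added after seeing the data. Replicates exceeded counting noise in each of 12 pairs. The script was tested on simulated data.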

Additional observations from a re-analysis of the deposited data

How the results depend on the processing

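The count of the 7 genes past the threshold was 4 to 6 in Alb-Cre and 6 in Alb-R3 when each sample was left out in turn, and 5 in Alb-R3 with FPKM. The 64 alternative values of the 4 ratios kept their direction and threshold. Of the alternative fold changes of single genes, 725 kept direction and side of the threshold, 5 lost the call, 3 gained it and 30 changed sign, and those that changed sign belonged to values that were not called, where the cause was not tested. With quantile normalization the Pttg1 genotype difference after oil was -0.00623 and with FPKM -0.0369. Library weights gave -0.61 for Cdc20 after oil, 0.0260 for Pttg1 after CCl4 and 1.43 for the Cdc20 interaction, which was 0.0564 with a pseudocount of 5 and 0.0466 with FPKM. Leaving out each sample gave these ranges: Fzr1 in Alb-Cre after CCl4 -0.0445 to 0.27, genotype after CCl4 -0.37 to 1.21 for Cdc20, -0.13 to 0.19 for Fzr1, -0.20 to 0.0154 for Pttg1 and -0.0507 to 0.64 for Espl1, genotype after oil -0.30 to 0.85 for Cdc20, -0.12 to 0.0214 for Fzr1, -0.28 to 0.0632 for Ube2s, -1.62 to 0.28 for Ube2c and -0.0581 to 0.13 for Pttg1, and interaction -0.71 to 0.87 for Cdc20 and -0.0684 to 0.25 for Fzr1.

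The sample numbers gave no clear sign of pairing: of 18 same-numbered pairs, 5 had a correlation of deviations over 0.1 (-0.394 to 0.448). With 3 samples per group this check cannot exclude pairing. With the replicate block, 6 of the 7 genes passed in Alb-R3 and 5 in Alb-Cre, as without it, and the Fbxo5 value in Alb-Cre had a limma adjusted p of 0.0354. Over all genes the count of 900 in Alb-Cre was 2703 with library weights and 525 to 1431 leaving out samples, and the 3598 in Alb-R3 was 2295 without a filter, 2039 with only the 6 samples compared and at lowest 2137 leaving out samples. The 42 genes between genotypes after oil were 663 with library weights and 12 with only 6 samples, and at most 103 leaving out samples, and the 35 after CCl4 were 103, 2 and at lowest 20, and 54 with FPKM. The interaction called 0 to 3 genes when samples were left out.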
